A study of Mus musculus with 17 samples.

Results

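Type I interferon-stimulated genes were examined in the diaphragm, the muscle that drives breathing, as a set of 9 genes taken by symbol: Isg15, Ifit1, Ifit3, Irf7, Oasl2, Oas2, Rsad2, Usp18 and Mx1. All 9 were present among the 47643 gene symbols of the deposited table, and 8 of them (all but Mx1) reached at least 1 TPM in at least 3 mice and were tested together with the other genes that did so, 13305 in all. TPM, transcripts per 1000000, is a level corrected for gene length and scaled to the same sum in each sample. RNA was sequenced from 17 male C57BL/6J mice aged 4 months. The tumor-free groups were Control (mock injections, n = 5) and Control + rFibcd1 (n = 5). The groups carrying LLC tumors were LLC (mock injections, n = 3) and LLC + rFibcd1 (n = 4). LLC is the Lewis lung carcinoma, a transplantable mouse tumor line (1 cell line), here grown under the skin of both flanks. rFibcd1 is a recombinant fragment of the secreted protein Fibcd1, which was injected into the peritoneal cavity during the last week, and mock mice received the carrier. The comparisons ask whether a distant tumor goes with a different level of these genes in the diaphragm, and whether treatment with rFibcd1 does.

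Type I interferons are secreted proteins that signal through the receptor chains Ifnar1 and Ifnar2 and the kinases Jak1 and Tyk2. These activate a complex of transcription factors that includes Stat2 and Irf9 and binds the interferon-stimulated response element in the promoters of target genes. The products of these genes restrict viruses, and some feed back on the pathway. Irf7 amplifies the production of interferon, Isg15 is a ubiquitin-like protein that is attached to other proteins, and Usp18 removes Isg15 and also blocks the receptor. Oas2 is an oligoadenylate synthetase and Oasl2 a relative of that family. Ifit1 and Ifit3 act on viral RNA, Rsad2 encodes viperin, an enzyme that makes a chain-terminating nucleotide, and Mx1 is an antiviral GTPase that C57BL/6J mice carry as a defective allele.

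Promoter sequences are shown because the interferon-stimulated response element is the feature through which these genes are known to respond together. RefSeq (GRCm38.p6) windows from 250 bases before to 50 bases after the gene start were at hand for 6 of the 9 genes, while Oas2, Usp18 and Mx1 were not in the table. The core of this element, spelled GAAA, any 2 bases, GAAA, was searched on both strands, as matches that may overlap, and was found in 4 of the 6 windows, those of Isg15, Ifit1, Ifit3 and Rsad2, whereas 3.99% of 27025 genes hold it in a window of this length. It was not found in the windows of Irf7 and Oasl2. The core of the gamma-activated site, TTCNNNGAA, was found in 0 of the 6 windows and in 9.55% of all genes. Below, each line gives the 160 bases that lie 200 to 41 bases before the RefSeq gene start, 5′ to 3′ on the strand of the gene, with matches to the core in capitals. This start can differ from that of the GENCODE gene coordinates given later. For Irf7 the last bases of the stretch lie inside the GENCODE gene (chr7:141262706-141266481), so its lack of a match holds for the RefSeq window only. Irf7, which has no match, is shown beside the 4 genes that have one because its change with the tumor was the clearest.
Isg15 (chr4:156200859-156201018, minus strand): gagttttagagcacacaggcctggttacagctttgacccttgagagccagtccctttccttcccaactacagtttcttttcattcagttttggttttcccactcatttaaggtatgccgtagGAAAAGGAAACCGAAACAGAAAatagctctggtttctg
Ifit1 (chr19:34640689-34640848, plus strand): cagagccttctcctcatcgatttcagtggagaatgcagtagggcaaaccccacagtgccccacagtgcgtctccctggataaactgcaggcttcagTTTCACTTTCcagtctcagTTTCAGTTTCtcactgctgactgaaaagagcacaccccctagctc
Ifit3 (chr19:34583329-34583488, plus strand): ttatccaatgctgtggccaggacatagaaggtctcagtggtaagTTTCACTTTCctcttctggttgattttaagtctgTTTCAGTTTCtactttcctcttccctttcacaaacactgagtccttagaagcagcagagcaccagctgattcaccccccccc
Rsad2 (chr12:26456493-26456652, minus strand): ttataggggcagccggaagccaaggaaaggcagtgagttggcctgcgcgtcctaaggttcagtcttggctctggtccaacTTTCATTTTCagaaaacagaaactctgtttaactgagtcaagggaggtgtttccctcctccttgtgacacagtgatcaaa
Irf7 (chr7:141266465-141266624, minus strand): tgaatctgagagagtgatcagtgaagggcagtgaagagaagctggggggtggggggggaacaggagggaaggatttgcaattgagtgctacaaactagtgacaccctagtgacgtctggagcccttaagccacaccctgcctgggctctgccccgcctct

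In the Isg15 promoter, 3 overlapping matches form 1 run from 78 to 57 bases before the start. Ifit1 and Ifit3 each have 2 separate matches on the opposite strand, spelled TTTCACTTTC and TTTCAGTTTC in both genes. Ifit3b, a close copy of Ifit3 on the same chromosome, holds the same pair. Rsad2 has 1 match, 120 to 111 bases before the start. A match is a description of the letters and was not tested as a binding site.

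The 9 genes were expressed at low levels in the diaphragm. Averaged over the 17 mice, the level was highest for Ifit3 (10.1 TPM) and Isg15 (9.83 TPM), followed by Oasl2 (7.55), Irf7 (5.83), Rsad2 (4.96), Oas2 (4.65), Ifit1 (3.36) and Usp18 (1.72 TPM). Mx1 averaged 0.468 TPM. The number of reads behind a value, estimated from the steps between low values, ran from 90 for Usp18 to 1989 for Oasl2 among the 8 tested genes, and from 18 to 95 for Mx1. Libraries were similar in depth, with 50.7 to 54.5 reads in units of 1000000 by the same estimate. Mitochondrially encoded transcripts took 41.3% to 44.3% of TPM in LLC, 43.7% to 46.5% in LLC + rFibcd1, 45.9% to 48.4% in Control and 45.4% to 50.4% in Control + rFibcd1, and 12763 to 13413 genes reached 1 TPM in LLC against 11798 to 12473 in Control. The part of these differences in the results was not tested, and values rescaled without mitochondrially encoded genes are among the alternatives. The summed level of 8 myofiber genes, among them Ckm, Acta1 and Ttn, lay between 40202.9 and 51048 TPM. In whole tissue, a change in the number of cells of a type cannot be told apart from a change in RNA per cell.

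Mice with LLC tumors had higher levels of Irf7, Oas2, Isg15 and Rsad2 than Control mice. These 4 of the 8 tested genes passed an adjusted p of 0.05 (limma, all 4 groups in 1 fit), and none was lower. All 8 estimates were positive, those of Ifit1 and Usp18 turning negative after quantile normalization (-0.154 and -0.105), with a median of 0.56 on the log2(TPM + 1) scale, against a median of 0.16 over all genes tested. The comparison as a whole was broad: 35.8% of all genes passed the same threshold, 29.7% as higher in LLC. The levels of 5 of the 8 genes did not overlap between LLC and Control, all higher in LLC, against 33.6% of all genes. Mx1 did not overlap either. With LLC replicate 3 left out, which leaves 2 LLC mice, 0 of the 8 genes and 0.18% of all genes passed the threshold, and 4 of the 8 had an unadjusted p under 0.05, as did 33.9% of all genes. The estimates were then 0.721 for Irf7, 0.711 for Oas2, 0.492 for Isg15 and 0.365 for Rsad2, so that of these 4 Rsad2 fell the most.

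**Figure D1:**
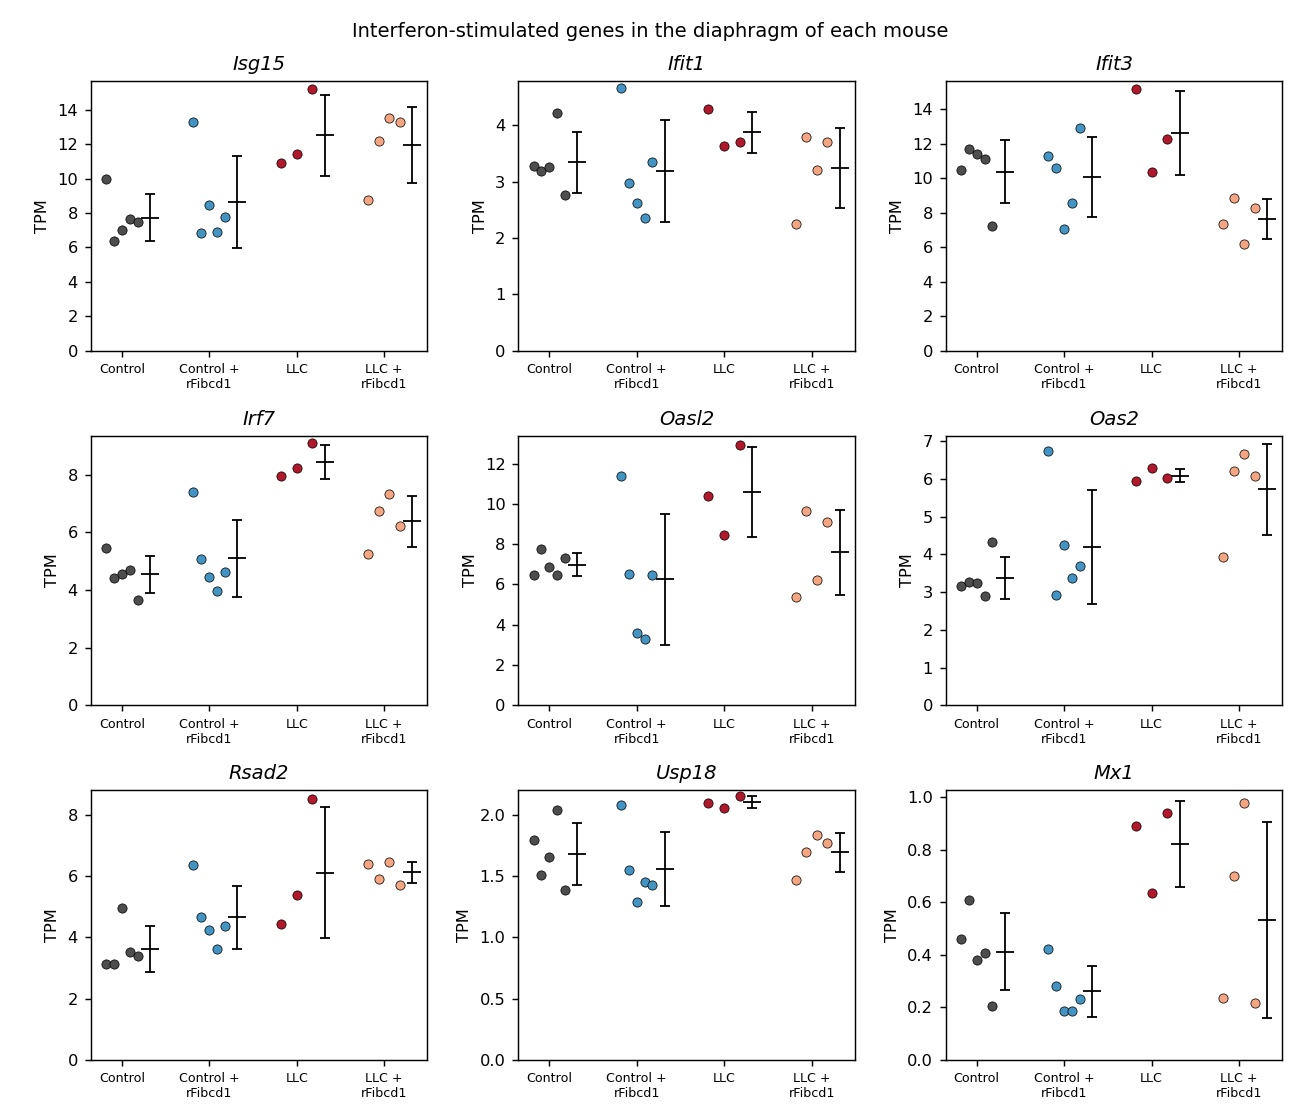
Level of each of the 9 genes (TPM, linear axis from 0) in the diaphragm of every mouse. Points are mice in order of replicate number, and the bar beside them is the mean ± SD of the group (n = 5, 5, 3 and 4). Irf7 in LLC lies between 7.95 and 9.09 TPM, above the Control mice (3.67 to 5.45) and above the LLC + rFibcd1 mice (5.24 to 7.32), while Ifit3 in LLC + rFibcd1 (6.18 to 8.85) lies below LLC (10.4 to 15.2).

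Irf7 (chr7:141262706-141266481, minus strand, GRCm38), the transcription factor of the set, showed the largest change of the 8 genes between LLC and Control. Its level was 5.45, 4.40, 4.55, 4.68 and 3.67 TPM in Control replicates 1 to 5, and 7.95, 8.25 and 9.09 TPM in LLC replicates 1 to 3. Every LLC mouse was above every Control mouse. With rFibcd1, it was 5.24, 6.75, 7.32 and 6.23 TPM in LLC replicates 1 to 4, and 7.40, 5.06, 4.45, 3.98 and 4.64 TPM in tumor-free replicates 1 to 5. The LLC + rFibcd1 mice were thus all below the LLC mice, and only replicate 1 was within the range of Control. The difference between LLC and Control was 0.77 ± 0.145 on the log2 scale (SE, adjusted p = 0.00897, limma). With any 1 of the 17 mice left out it was positive (0.71 to 0.827), and its adjusted p was 0.0654 without LLC replicate 3. The difference between LLC + rFibcd1 and LLC was -0.36 ± 0.151 (unadjusted p = 0.0319, adjusted p = 0.206), and so did not pass the threshold. In order of group means, Irf7 ran from LLC (8.43 ± 0.589 TPM, SD, n = 3) over LLC + rFibcd1 (6.39 ± 0.884, n = 4) and Control + rFibcd1 (5.11 ± 1.34, n = 5) to Control (4.55 ± 0.637, n = 5). The ranges of the last 3 groups overlapped from neighbour to neighbour.

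Isg15 (chr4:156199424-156200818, minus strand) encodes the modifier protein. Its level was 10, 6.40, 7.02, 7.67 and 7.50 TPM in Control and 10.9, 11.4 and 15.2 TPM in LLC. All 3 LLC mice were above all 5 Control mice, the nearest pair being LLC replicate 1 and Control replicate 1. LLC + rFibcd1 mice had 8.77, 12.2, 13.5 and 13.3 TPM, and Control + rFibcd1 mice 13.3, 6.85, 8.47, 6.89 and 7.75 TPM. The tumor-free mouse treated with rFibcd1 that reached 13.3 TPM, replicate 1, stood far from the other 4 mice of its group. Isg15 was higher in LLC than in Control by 0.63 ± 0.193 (SE, adjusted p = 0.0231, limma), and the adjusted p was 0.129 without LLC replicate 3. After median-ratio scaling and quantile normalization it was at 0.441 and 0.388 and did not pass (adjusted p = 0.0606 and 0.0778). LLC + rFibcd1 and LLC differed by -0.07 ± 0.202, with a 95% confidence interval from -0.50 to 0.36. With means of 12.5 and 11.9 TPM, the tumor groups held the first places in the order, followed by Control + rFibcd1 (8.65) and Control (7.72), and neighbours in this order overlapped.

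Usp18 (chr6:121245906-121270917, plus strand), the protease that removes Isg15, was a low and even transcript. It was measured at 1.80, 1.51, 1.66, 2.04 and 1.39 TPM in Control and at 2.10, 2.06 and 2.16 TPM in LLC. These groups did not overlap, although the nearest values differed by little. In LLC + rFibcd1 the values were 1.47, 1.70, 1.84 and 1.77 TPM, all below LLC and all within the range of Control. Control + rFibcd1 ran from 1.29 to 2.08 TPM. The difference between LLC and Control, 0.22 ± 0.097 (SE), had an adjusted p of 0.0898 in limma and turned to -0.105 after quantile normalization. For LLC + rFibcd1 against LLC it was -0.21 ± 0.102 (adjusted p = 0.229), and 0.015 after quantile normalization. Of the 4 listed enzymes that attach Isg15, 3 were higher in LLC than in Control, where 29.7% of all genes were. Uba7 was higher by 0.75 ± 0.216, Ube2l6 by 1.14 ± 0.363 and Trim25 by 0.50 ± 0.127 (adjusted p = 0.0187, 0.0271 and 0.0132, limma). Herc6, the fourth gene listed, was not (0.14 ± 0.128, adjusted p = 0.391). The ranges of Ube2l6 nearly touched, with at most 21.1 TPM in Control and at least 22.5 TPM in LLC. Ube2l6 passed in 14 of the 17 fits that leave out 1 mouse.

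Oas2 (chr5:120730333-120749853, minus strand) separated LLC from Control with a small spread in LLC. Its level was 3.16, 3.26, 3.23, 2.89 and 4.32 TPM in Control and 5.95, 6.28 and 6.02 TPM in LLC. LLC + rFibcd1 mice had 3.94, 6.22, 6.67 and 6.07 TPM, so that 3 of the 4 were within or above the LLC range and replicate 1 was within the range of Control. Control + rFibcd1 mice had 6.75, 2.92, 4.26, 3.37 and 3.69 TPM, with replicate 1 highest of all 17 mice. Oas2 was higher in LLC than in Control by 0.70 ± 0.187 (SE, adjusted p = 0.0145, limma), with an adjusted p of 0.0725 without LLC replicate 3 and of 0.089 after quantile normalization, where the difference was 0.389. LLC + rFibcd1 against LLC gave -0.09 ± 0.195, with a confidence interval from -0.51 to 0.32. The order of means was LLC (6.08), LLC + rFibcd1 (5.73), Control + rFibcd1 (4.20) and Control (3.37 TPM), and each neighbouring pair overlapped.

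Oasl2 (chr5:114896936-114912234, plus strand) varied more within groups. It lay between 6.48 and 7.78 TPM in the 5 Control mice, and at 10.4, 8.44 and 12.9 TPM in LLC. The ranges did not overlap, but the difference of 0.52 ± 0.279 (SE) did not pass the test (adjusted p = 0.147, limma). In LLC + rFibcd1 it was 5.36, 9.64, 6.24 and 9.12 TPM, which falls partly within LLC and partly below Control. Control + rFibcd1 spanned 3.28 to 11.4 TPM, the widest range of the 4 groups. Fitted on the LLC and Control mice alone, Oasl2 passed, with a change of 0.523 and an adjusted p of 0.0125, where 39.3% of all genes passed.

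Ifit3 (chr19:34583531-34588731, plus strand) and Ifit1 (chr19:34640871-34650009, plus strand) both lie in the Ifit cluster, with Ifit3b between them. Ifit3 was 10.5, 11.7, 11.4, 11.1 and 7.23 TPM in Control, and 15.2, 10.4 and 12.3 TPM in LLC. These groups overlapped, and their difference of 0.26 ± 0.181 (SE) did not pass the test (adjusted p = 0.259, limma). LLC + rFibcd1 mice had 7.33, 8.85, 6.18 and 8.26 TPM, all below the LLC mice and below 4 of the 5 Control mice. The difference between LLC + rFibcd1 and LLC, -0.65 ± 0.19, was the largest in that comparison among the 8 genes (unadjusted p = 0.00366, adjusted p = 0.163). Against Control, the estimate for LLC + rFibcd1 was also negative, -0.39 ± 0.167 (unadjusted p = 0.0339, adjusted p = 0.216). Control + rFibcd1 lay between 7.07 and 12.9 TPM.

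Reads of Ifit3 are uncertain because the transcripts of Ifit3 and Ifit3b are 98.0% identical over 1697 aligned bases, and the counting could divide reads between them. Ifit3b was also lowest in LLC + rFibcd1 and highest in LLC, with means of 3.77 TPM in Control, 4.01 in Control + rFibcd1, 4.47 in LLC and 2.86 in LLC + rFibcd1. Its difference between LLC + rFibcd1 and LLC was -0.50 ± 0.17 (SE, unadjusted p = 0.0102, adjusted p = 0.185, limma), and unlike those of Ifit3 its ranges overlapped (2.36 to 3.92 and 3.29 to 5.06 TPM). Ifit1, which shares 68.5% of its aligned bases with Ifit3, did not separate any groups. It ran from 2.76 to 4.22 TPM in Control, 2.35 to 4.66 in Control + rFibcd1, 3.63 to 4.29 in LLC and 2.25 to 3.79 in LLC + rFibcd1. Its difference between LLC and Control was 0.17 ± 0.161 (adjusted p = 0.406), and -0.154 after quantile normalization.

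Rsad2 (chr12:26442746-26456452, minus strand), the viperin gene, was 3.13, 3.12, 4.95, 3.51 and 3.40 TPM in Control and 4.45, 5.38 and 8.54 TPM in LLC. The 2 groups overlapped through Control replicate 3 and LLC replicate 1. LLC + rFibcd1 mice were closer together, at 6.39, 5.92, 6.46 and 5.73 TPM, and all were above Control. Control + rFibcd1 mice had 6.38, 4.67, 4.24, 3.61 and 4.39 TPM. Rsad2 was higher in LLC than in Control by 0.60 ± 0.173 (SE, adjusted p = 0.019, limma), and by 0.365 without LLC replicate 3 (adjusted p = 0.131). Other scalings ended the call, with 0.423 after median-ratio scaling and 0.295 after quantile normalization (adjusted p = 0.0503 and 0.157). It was higher in LLC + rFibcd1 than in Control by 0.64 ± 0.159 (adjusted p = 0.0433). LLC + rFibcd1 and LLC differed by 0.04 ± 0.181, with a confidence interval from -0.35 to 0.42, and had means of 6.12 and 6.13 TPM.

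Mx1 (chr16:97447035-97462907, minus strand) was below the filter and was tested only without it, among 22950 genes. It lay at 0.458, 0.609, 0.378, 0.406 and 0.204 TPM in Control and at 0.890, 0.634 and 0.941 TPM in LLC. The LLC mice were above Control, by 0.37 ± 0.142 on the log2(TPM + 1) scale (SE, adjusted p = 0.0744, limma). LLC + rFibcd1 fell into a high pair, replicates 2 and 3 (0.701 and 0.979 TPM), and a low pair, replicates 1 and 4 (0.235 and 0.215 TPM). Control + rFibcd1 was low, from 0.185 to 0.420 TPM.

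Treatment with rFibcd1 changed none of the 8 genes past the threshold. In LLC + rFibcd1 against LLC, 0 of the 8 passed an adjusted p of 0.05 (limma) where 0.113% of all genes did, and 2 (Ifit3 and Irf7) had an unadjusted p under 0.05 where 22.7% of all genes did. The median change was -0.22, against -0.11 over all genes. Levels of 3 genes, Ifit3, Irf7 and Usp18, did not overlap and were lower with rFibcd1, a position held by 9.30% of all genes. Isg15, Oas2 and Rsad2 stayed within 0.09 of 0, and the sign of Isg15 and Oas2 turned positive after median-ratio scaling (0.067 and 0.026) and after quantile normalization (0.093 and 0.137). In Control + rFibcd1 against Control, 0 of the 8 passed, as did 0% of all genes, and 0 had an unadjusted p under 0.05, where 4.39% of all genes did. Of these 8 estimates, 4 were positive and 4 negative, from -0.25 ± 0.241 for Oasl2 to 0.29 ± 0.15 for Rsad2.

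**Figure D2:**
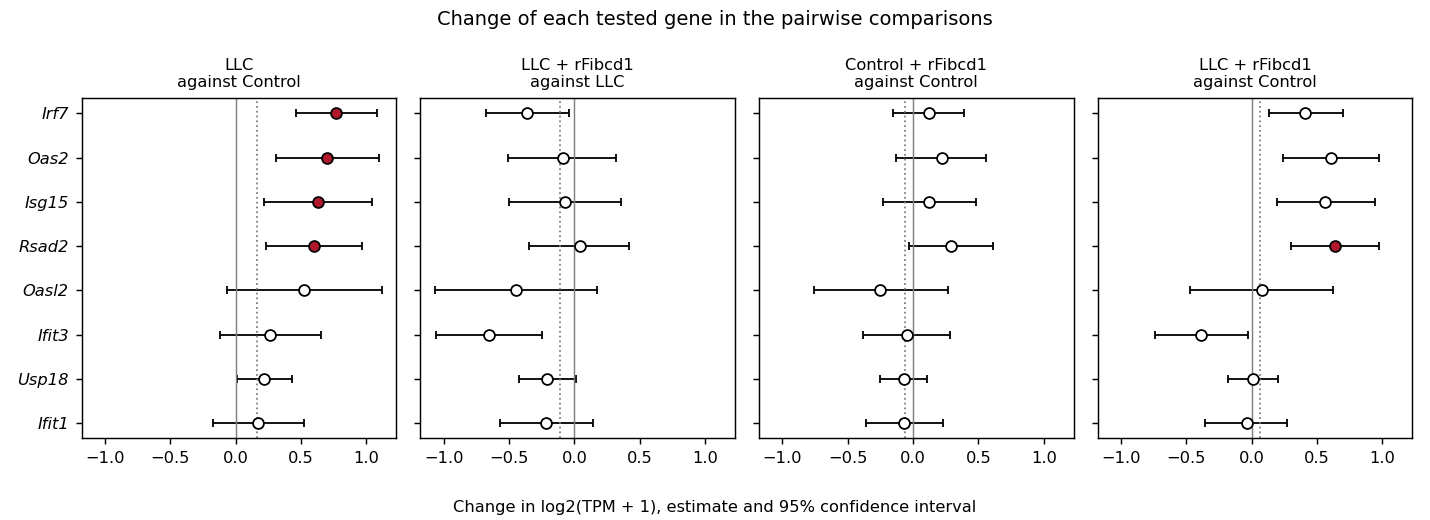
Change of each tested gene in the 4 pairwise comparisons, as the limma estimate on the log2(TPM + 1) scale with its 95% confidence interval. Filled points passed an adjusted p of 0.05, the dotted line is the median over all 13305 genes. In LLC against Control 4 genes are filled, with Irf7 at 0.77, and in LLC + rFibcd1 against LLC the lowest is Ifit3 at -0.65.

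LLC + rFibcd1 mice, compared with Control, remained higher in Rsad2, 1 of the 8 genes, where 3.08% of all genes passed (limma, adjusted p of 0.05). Another 4 genes had an unadjusted p under 0.05, in 3 of them as higher: Oas2 by 0.61 ± 0.171 (adjusted p = 0.0674), Isg15 by 0.56 ± 0.177 (adjusted p = 0.094) and Irf7 by 0.41 ± 0.133 (adjusted p = 0.103). Ifit3 was the fourth, with the negative estimate given above. The share of all genes at that unadjusted threshold was 19.9%. The count moved with single mice: without Control + rFibcd1 replicate 1, which enters through the shared estimate of spread, Irf7, Isg15, Oas2 and Rsad2 passed, and Rsad2 itself passed in 5 of the 17 leave-one-out fits. This comparison shares its Control mice with the comparison of LLC and Control, and the LLC mice likewise serve in both comparisons that include LLC, so the values are given side by side only.

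With all tumor-bearing mice against all tumor-free mice (7 against 10), the same 4 genes passed as in LLC against Control, where 44.8% of all genes did, and 38.8% as higher. Irf7 was higher by 0.51 ± 0.098, Oas2 by 0.54 ± 0.126, Isg15 by 0.53 ± 0.13 and Rsad2 by 0.48 ± 0.117 (SE; adjusted p = 0.00241, 0.00508, 0.00643 and 0.00647, limma). Leaving out any 1 of the 17 mice, LLC replicate 3 included, these 4 still passed, but after quantile normalization Rsad2 did not (0.254, adjusted p = 0.074). The ranges of tumor-bearing and tumor-free mice overlapped for all 8 genes, and were apart for 2.26% of all genes. Without the filter, Mx1 passed as well, with 0.29 ± 0.0956 (adjusted p = 0.0352). The effect of rFibcd1 in tumor-bearing mice was set against that in tumor-free mice as the interaction, in which 0 of the 8 genes and 0% of all genes passed. An unadjusted p under 0.05 was reached by 2 of the 8 genes and 8.58% of all genes. These were Ifit3 (-0.60 ± 0.246, unadjusted p = 0.0273, adjusted p = 0.475, limma) and Irf7 (-0.48 ± 0.197, unadjusted p = 0.0277, adjusted p = 0.479, limma).

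Interferon ligands were close to absent. Of 21 ligand genes, 17, among them Ifnb1, were at 0 in every mouse, and none reached the filter. Ifna16, Ifnab and Ifnz were seen in 1, 4 and 3 mice, at no more than 0.114 TPM or about 4 reads, so that a difference between groups was not detectable at this depth. Ifng, the type II interferon, was above 0 in 11 mice and reached 0.232 TPM. Markers of plasmacytoid dendritic cells, which are known as strong producers of type I interferon, were low, with sums over Siglech, Ccr9 and Pacsin1 of 1.08 to 1.47 TPM in Control, 0.661 to 1.26 in Control + rFibcd1, 1.67 to 2.57 in LLC and 0.876 to 3.06 in LLC + rFibcd1. Every LLC mouse was above every Control mouse in this sum and in Ccr9 and Pacsin1, but Siglech overlapped between the groups (0.428 to 0.852 TPM in Control and 0.533 to 0.708 in LLC). The part of these cells in the change of the 9 genes was not tested.

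Upstream of the 9 genes, most but not all tested receptor and signaling genes were higher in LLC than in Control, where 29.7% of all genes were. Among 5 tested receptor genes, 4 passed (limma, adjusted p of 0.05): Ifnar2 by 0.76 ± 0.204, Ifnar1 by 0.45 ± 0.125, Il10rb by 0.47 ± 0.123 and Ifngr1 by 0.46 ± 0.128 (SE, adjusted p = 0.0152, 0.0162, 0.0141 and 0.0167). Ifngr2 stood at 0.02 ± 0.062. Among 5 signal transducers, 4 passed: Tyk2 by 0.51 ± 0.128, Stat2 by 0.49 ± 0.147, Irf9 by 0.49 ± 0.176 and Jak1 by 0.29 ± 0.107, while Jak2 was at -0.02 ± 0.103. Jak1 and Irf9 passed in 8 and 11 of the 17 fits that leave out 1 mouse, with estimates of 0.219 to 0.363 and 0.444 to 0.553. Of 16 tested sensors and inducers of interferon, 13 passed, all higher. Of the 3 most abundant of these, Irf3 (0.38 ± 0.127) and Tbk1 (0.27 ± 0.082) were among the 13, and the adaptor Mavs (-0.09 ± 0.078) was not. Irf3 passed in 12 of the 17 leave-one-out fits. The higher ones also included the endosomal receptor Tlr9, by 1.5 ± 0.329, and Tmem173, which encodes STING, by 1.15 ± 0.208, both named after their values were seen.

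Of 41 other type I interferon targets tested, 19 were higher in LLC than in Control and 0 lower, with a median change of 0.48. Among the 41, Ifit1bl1 and Oasl1 stayed below 1 TPM in every tumor-free mouse (at most 0.732 and 0.92 TPM). They passed the filter only through tumor-bearing mice, which favored a higher level in LLC. The counts of this and the next lists stand against 29.7% of all genes higher, and the lists were not tested against each other. The 3 most abundant of them did not pass: Ifi27l2a at 1.71 ± 0.731, Ifi27 at 0.67 ± 0.346 and Bst2 at 0.27 ± 0.177 (SE, adjusted p = 0.0779, 0.138 and 0.237, limma). Of 17 GTPases and targets better known for interferon gamma, 4 were higher, a share below that of all genes, and the median was 0.25, against 0.16 over all genes. These 4 were Ciita (1.67 ± 0.412), the master regulator of MHC class II genes, Ifi47 (0.98 ± 0.291), Gbp8 (0.86 ± 0.237) and Irf1 (0.55 ± 0.175), whereas the more abundant Gbp2, Irgm2 and Igtp were at 0.47 ± 0.205, 0.25 ± 0.144 and 0.45 ± 0.177 and did not pass. All 3 Ifitm genes, which encode membrane proteins that block viral entry, were higher: Ifitm1 by 1.72 ± 0.267, Ifitm3 by 0.70 ± 0.178 and Ifitm2 by 0.63 ± 0.153. Of 7 inhibitors of the pathway, 2 were higher, Ptpn6 (2.08 ± 0.625), a phosphatase best known from blood cells, and Samhd1 (0.81 ± 0.245), a nucleotide hydrolase, and the abundant nuclease Trex1 was at 0.13 ± 0.109.

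As for the 8 tested genes, no gene of any of these lists passed without LLC replicate 3. How far the estimates moved over all fits that leave out 1 mouse differed by gene. Trim25 ran from 0.476 to 0.53 and Ifitm3 from 0.683 to 0.752, while Irf3 ran from 0.297 to 0.514, Ube2l6 from 0.79 to 1.348 and, among the genes that did not pass, Ifi27l2a from 1.214 to 2.182 and Ifi27 from 0.245 to 0.999. Without LLC replicate 3, the counts with an unadjusted p under 0.05, which 33.9% of all genes had, were 4 of 5 receptors, 3 of 5 signal transducers, 11 of 16 sensors, 2 of 4 Isg15 conjugation enzymes, 21 of 41 other targets, 4 of 17 interferon gamma targets, 2 of 7 inhibitors and 3 of 3 Ifitm genes. In LLC + rFibcd1 against LLC, none of these genes passed, where 0.113% of all genes did, and the medians of the 8 lists lay between -0.47 and -0.21, where all genes had -0.11. In that comparison 22.7% of all genes had an unadjusted p under 0.05 (limma). So had 2 of 5 receptors, 2 of 5 signal transducers, 6 of 16 sensors and 1 of 4 Isg15 conjugation enzymes. The other counts were 14 of 41 other targets, 8 of 17 interferon gamma targets, 1 of 7 inhibitors and 0 of 3 Ifitm genes. In LLC + rFibcd1 against Control, 1 gene of these lists passed, Ifitm1, with 1.35 ± 0.245 (adjusted p = 0.00812, limma), where 3.08% of all genes did. Ifitm1 had means of 3.15 TPM in Control, 3.73 in Control + rFibcd1, 12.8 in LLC and 10.3 in LLC + rFibcd1.

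**Figure D3:**
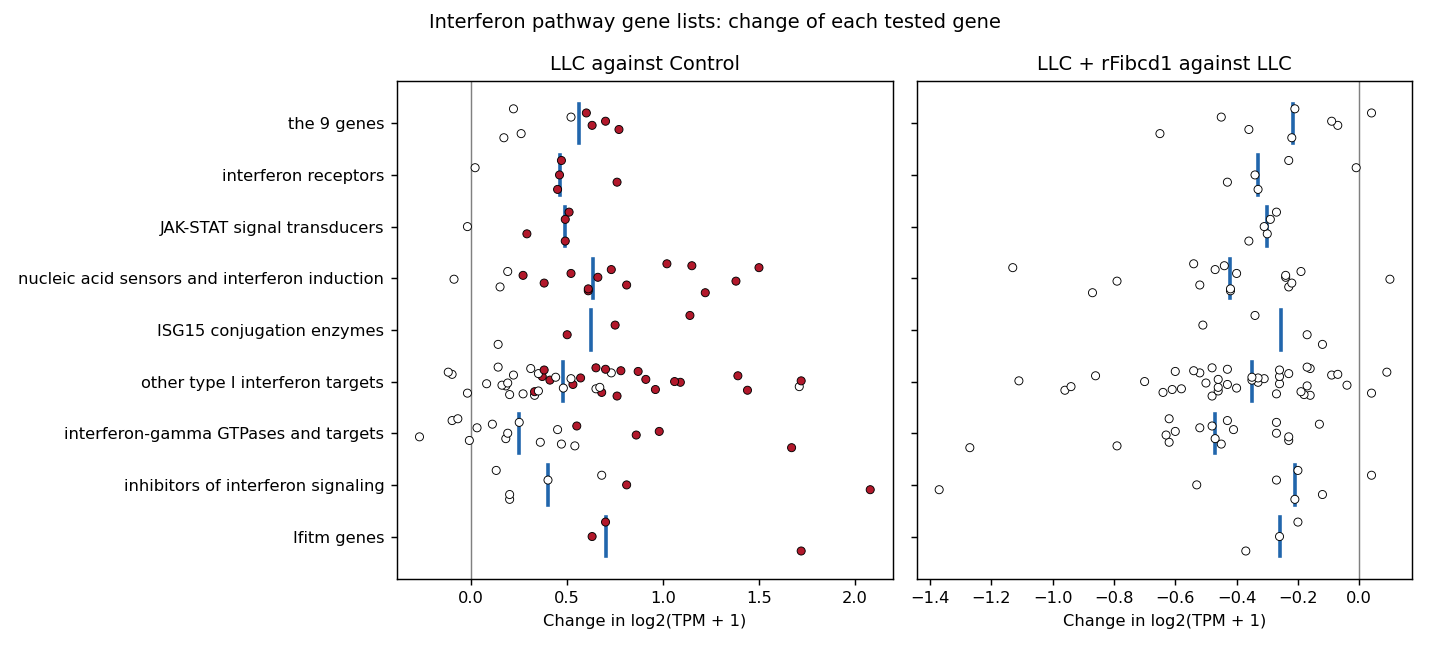
Change in log2(TPM + 1) of each tested gene of the interferon pathway lists, in LLC against Control (left) and LLC + rFibcd1 against LLC (right). Each point is a gene, filled where it passed an adjusted p of 0.05, and the blue bar is the median of the list. On the left, 13 of 16 sensors and 19 of 41 other targets are filled and none of the filled genes is negative, and on the right no gene is filled and the list medians lie between -0.47 and -0.21. The 41 include Ifit1bl1 and Oasl1, which passed the filter only through tumor-bearing mice.

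The 9 genes varied together from mouse to mouse, but not as 1 block. Over the 17 mice, Pearson's r between the log2 values of 2 of the genes ran from -0.12 to 0.89, with a median of 0.59 over the 36 pairs. After subtracting group means the median was 0.51, and 35 of the 36 pairs were above 0. Before group means were subtracted, Isg15, Irf7 and Oas2 were close (0.89 for Isg15 with Irf7, 0.89 for Isg15 with Oas2, 0.80 for Irf7 with Oas2). So were Ifit1 and Usp18 (0.82). After subtraction these values were 0.83, 0.75, 0.56 and 0.82, so the trio was less close within groups. Before subtraction, Ifit3 had lower values with this trio, r of -0.12 to Oas2, -0.05 to Isg15 and 0.25 to Irf7. It was closest to Ifit1 (0.60). These values describe genes measured in the same libraries and carry no test.

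**Figure D4:**
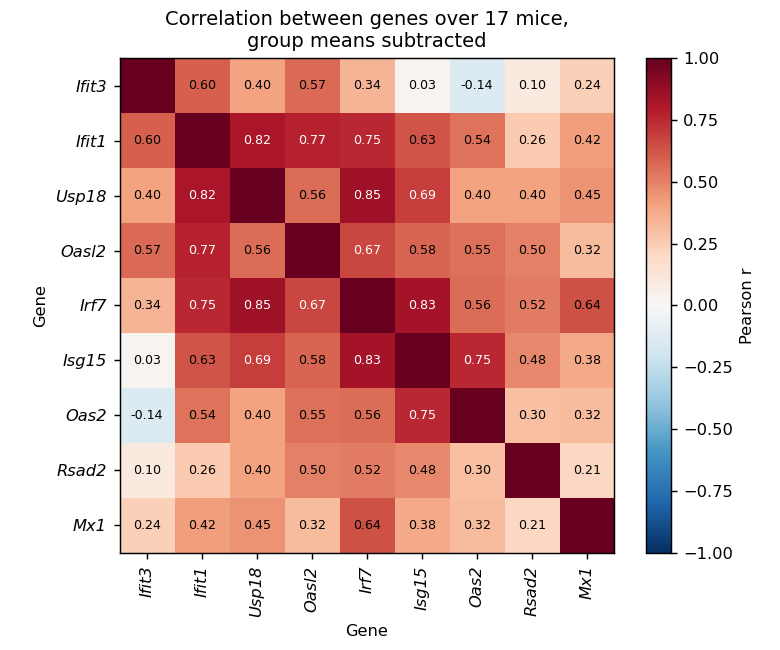
Pearson's r between the log2(TPM + 1) values of each pair of the 9 genes over 17 mice, after subtracting the mean of each group. Red is positive and blue negative. The highest value is 0.85 (Irf7 with Usp18) and the lowest -0.14 (Ifit3 with Oas2).

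Of all other tested genes, those most like the mean of the 8 genes over the 17 mice were Mon1b, which acts in endosome maturation (r = 0.96), Oas1a, an oligoadenylate synthetase (0.95), the transcriptional repressor Tgif1 (0.94), Fchsd1 (0.93) and Pik3r5 (0.93). After subtracting group means, Mon1b (0.93), Tgif1 (0.90), Oas1a (0.90), the autophagy gene Atg12 (0.90) and the ion channel gene Piezo1 (0.88) came first. Oas1a was the 1 of these genes that belongs to the interferon lists. Its mean level ran from 2.33 TPM in the lowest group, Control, to 5.21 TPM in the highest, LLC, and it was higher in LLC by 0.91 ± 0.224 (SE, adjusted p = 0.0128, limma).

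Markers of immune cells were higher in the same mice. Summed over 6 B cell markers, Control ranged from 2.45 to 97.1 TPM, Control + rFibcd1 from 3.47 to 139, LLC from 226 to 287 and LLC + rFibcd1 from 18.3 to 282. All 6 B cell markers and all 6 T cell markers were higher in LLC than in Control (limma, adjusted p of 0.05), as were 5 of 5 tested neutrophil markers and 3 of 7 markers of monocytes and macrophages, beside 29.7% of all genes higher and 35.8% called in either direction. The T cell marker Cd8a was at most 0.731 TPM in tumor-free mice. It passed the filter only through tumor-bearing mice, which favored a higher level in LLC. The T cell sum was 1.58 to 12.6 TPM in Control and 20.6 to 33.9 TPM in LLC, and that of neutrophils 1.84 to 14.3 and 45.0 to 106 TPM. With rFibcd1, the T cell sum was 0.934 to 8.05 TPM in tumor-free mice and 2.05 to 33.0 TPM in LLC + rFibcd1. The neutrophil sum was 2.87 to 78.4 TPM in Control + rFibcd1 and 55.0 to 206 TPM in LLC + rFibcd1, where the same 5 markers were also higher than in Control, as were 2 of 6 endothelial markers, beside 3.08% of all genes called. For monocytes and macrophages the sum was 209 to 465 TPM in Control, 173 to 1536.4 in Control + rFibcd1, 759 to 832 in LLC and 307 to 819 in LLC + rFibcd1. For 4 NK cell markers, none of which reached the filter, it was 0.291 to 1.04 TPM in Control and 1.57 to 3.29 TPM in LLC. None of the tested immune markers passed in LLC + rFibcd1 against LLC. There 5 of 6 T cell, 2 of 6 B cell, 0 of 7 monocyte and macrophage and 0 of 5 neutrophil markers had an unadjusted p under 0.05 (limma), beside 22.7% of all genes. No marker was at 0 in any LLC mouse, and Ly6g and Ncr1, markers of neutrophils and NK cells, were at 0 in at least 1 tumor-free mouse. Of 6 endothelial markers 1 was higher in LLC, of 4 fibroblast and 4 mesothelial markers 0, and of 8 myofiber genes 4 were lower, with a myofiber sum of 40202.9 to 41907.2 TPM in LLC and 45897.2 to 50018.5 TPM in Control. The part of any cell type in the change of the interferon-stimulated genes was not tested.

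Single mice show how far the markers and the 9 genes went together. Control + rFibcd1 replicate 1 was the highest of its group for 8 of the 9 genes, Ifit3 being the exception, and had a mean log2 level of the 8 tested genes of 3.01, where the other 4 mice had 2.25 to 2.55. Its sum of monocyte and macrophage markers was 1536.4 TPM, the highest of all 17 mice and far from the 173 to 395 TPM of the rest of its group. Most of that sum was Lyz2, which reached 1459 TPM in this group. Adgre1 was also highest in this group (up to 18.1 TPM). Csf1r, Cd68, Ly6c2, Ccr2 and Mrc1 reached higher levels in tumor-bearing mice (Csf1r up to 25.2 TPM here and 30.6 in LLC + rFibcd1). The B cell sum of Control + rFibcd1 replicate 1 was 139 TPM, against 3.47 to 27.1 in the rest of its group. Among LLC + rFibcd1 mice, replicates 1 and 4 were low in B cell markers (18.3 and 21.4 TPM) and replicates 2 and 3 high (129 and 282 TPM). The mean level of the 8 genes was 2.48 and 2.81 in the former pair and 2.84 and 2.75 in the latter. Replicate 1 was the lowest of its group for 6 of the 9 genes (Isg15, Ifit1, Irf7, Oasl2, Oas2 and Usp18). Replicate 4, with as few B cell markers, was near replicates 2 and 3 in Isg15 and Oas2 and near replicate 2 in Oasl2. In Mx1, however, replicate 4 was near replicate 1 (0.215 and 0.235 TPM), below replicates 2 and 3 (0.701 and 0.979 TPM). Replicate 4 was also the lowest of its group in Rsad2 (5.73 TPM). The LLC mice had means of 2.94, 2.87 and 3.11.

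**Figure D5:**
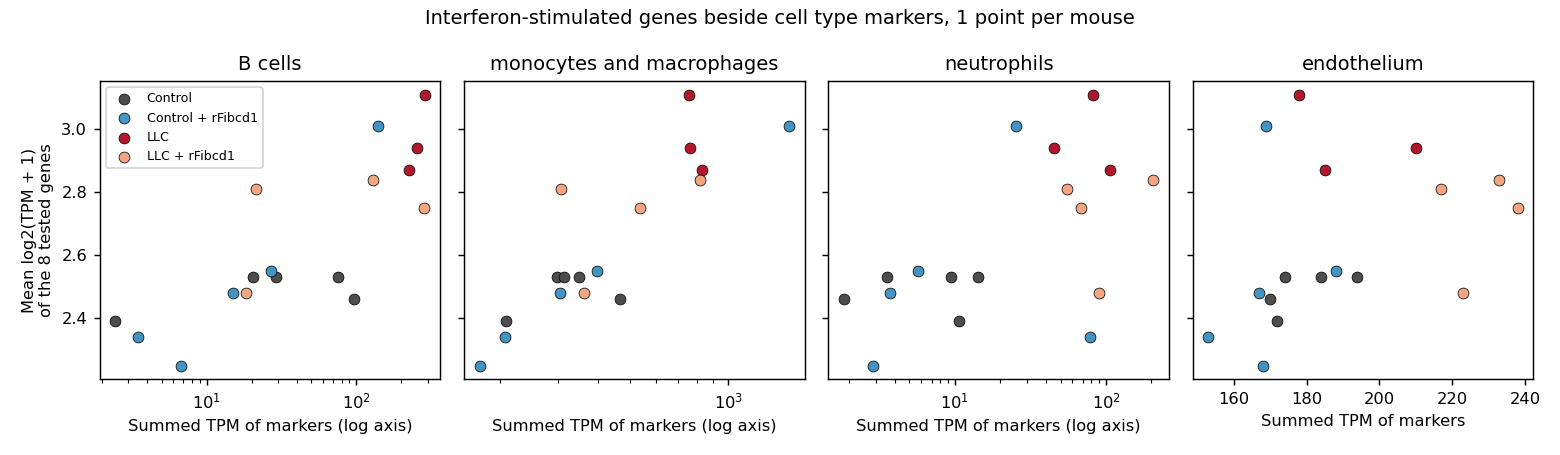
Mean log2(TPM + 1) of the 8 tested genes against the summed TPM of markers of B cells, monocytes and macrophages, neutrophils (log axes) and endothelium (linear axis), with 1 point per mouse, colored by group. The 3 LLC mice lie at the upper right of the B cell panel (226 to 287 TPM), LLC + rFibcd1 replicate 4 has a mean of 2.81 at a B cell sum of 21.4 TPM, and Control + rFibcd1 replicate 1 lies farthest right for monocytes and macrophages (1536.4 TPM). Most of the latter sum is 1 gene, Lyz2, which reached 1459 TPM in that group.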

How the data were processed

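RNA-seq was done on the diaphragm of 17 mice. The authors trimmed and aligned reads to the mouse genome GRCm38 (mm10) in CLC Genomics Workbench, and the deposited values are TPM per gene, scaled by them to the same sum in each sample. Which annotation release they used is not given in the sources used here. The sample labels name a stranded library kit and the methods another kit, so strand was not settled and overlapping genes are uncertain. The authors selected genes with Kruskal-Wallis and Dunn tests. Depth was estimated from the steps between low values, of which 82.4% to 85.4% per sample were within 0.02 of a whole read, and 4% would be by chance. After a filter (1 TPM or more in 3 samples or more), log2(TPM + 1) was fitted with limma 3.58.1 (R 4.3.3) over all 4 groups with an expression trend, and two-sided p-values were adjusted over the 13305 genes kept (Benjamini-Hochberg), with 0.05 as threshold. A fold on this scale understates the change of low genes. Each sample is 1 mouse, no litter or batch is named in the labels, and 0 columns lacked a sample. On simulated data for LLC against Control, 9, 26, 45 and 50 of 50 genes changed by 0.25, 0.5, 1 and 2 (log2) were recovered, with 8 calls among 13105 unchanged genes. Alternatives were a pseudocount of 0.1, no filter, 3 other scalings, a fit of only the groups compared, the replicate number as a block, Dunn's test, and leaving out each mouse. The 9 genes and the gene lists were chosen with earlier results of these data known. All 9 are described, and of each list the 3 most abundant genes and, where 5 or fewer passed, those that passed. Ifi209, Gbp6 and Itgam were listed but not matched by symbol, and 1 gene of the signal transducers is not reported here and was left out of the counts of its list. Correlations and sequences were handled in Python 3.11.15 with pandas 2.3.3, scipy 1.17.1 and Biopython 1.88. Gene coordinates are those of GENCODE on GRCm38, counted from 1.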

Additional observations from a re-analysis of the deposited data

Results flagged for a closer look

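In 27 sets of 4 or 5 mice (1 gene in 1 group), the highest or lowest value stood apart from the rest by Dixon's test in 4, where chance gives about 1 in 20. Isg15 was 13.3 TPM in Control + rFibcd1 replicate 1, with the other 4 mice at 6.85 to 8.47 TPM. Ifit3 was 7.23 TPM in Control replicate 5, below the 10.5 to 11.7 TPM of the other Control mice, and Oas2 in the same mouse was 4.32 TPM, above the 2.89 to 3.26 TPM of the others. Rsad2 was 4.95 TPM in Control replicate 3, where the other Control mice had 3.12 to 3.51 TPM.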

How the results depend on the processing

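Of 320 values for the 8 genes under other settings, 284 kept their direction and their side of the threshold. In LLC against Control, the number of genes that passed was 2 after median-ratio scaling (Irf7 and Oas2), 1 after quantile normalization (Irf7) and 0 with the replicate number as a block, where 29.7%, 35.2% and 0.0376% of all genes passed. Same-numbered mice of different groups had a median r of -0.06 over 22 pairs (-0.46 to 0.49, 4 above 0.1). Mice with different numbers had a median r of -0.03 over 85 pairs. Of 17 mice, 1 was closest to its own number. Whether the number stands for a shared factor was not tested. Leaving out each mouse gave 0 to 5 genes in LLC against Control, 0 to 4 in LLC + rFibcd1 against Control and 4 to 6 in tumor-bearing against tumor-free mice, the highest counts without Control + rFibcd1 replicate 1, where 39.5%, 4.49% and 49.8% of all genes passed. In LLC + rFibcd1 against LLC, 1 gene passed by Dunn's test and 1 by limma, both at an unadjusted p of 0.05 and a fold over 1.5 (0.661% and 4.1% of all genes). In LLC + rFibcd1 against Control, these tests gave 2 and 2 (1.31% and 1.65% of all genes), and 0 genes passed without the filter, after quantile normalization or with the replicate block (1.46%, 2.75% and 1.3% of all genes).

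Signs turned for estimates of up to 0.218 in size, Usp18 in LLC against Control having the largest (0.218, unadjusted p = 0.0409 in limma), and the cause was not tested. After median-ratio scaling they were, for LLC + rFibcd1 against LLC, Isg15 (0.067) and Oas2 (0.026), for tumor-bearing against tumor-free mice Ifit1 (-0.044), for Control + rFibcd1 against Control Ifit3 (0.023), for LLC + rFibcd1 against Control Usp18 (-0.029), and for LLC against Control Ifngr2 (-0.184) and Trex1 (-0.067). After quantile normalization they were Ifit1 (-0.154), Usp18 (-0.105), Ifngr2 (-0.152) and Trex1 (-0.058) in LLC against Control, Isg15 (0.093), Ifit1 (0.017), Oas2 (0.137) and Usp18 (0.015) in LLC + rFibcd1 against LLC, Ifit1 (0.005), Ifit3 (0.014) and Usp18 (0.013) in Control + rFibcd1 against Control, Oasl2 (-0.003) and Usp18 (-0.09) in LLC + rFibcd1 against Control, Ifit1 (-0.147) and Usp18 (-0.103) in tumor-bearing against tumor-free mice, and Ifit1 (0.013) and Usp18 (0.002) in the interaction. Rescaled without mitochondrially encoded genes, Usp18 in LLC + rFibcd1 against Control was -0.022 and Ifngr2 in LLC against Control -0.09, and with the replicate block the former was -0.017. In LLC against Control, all genes had a median of 0.16 on the values used, and of -0.01, -0.10 and 0.07 under median-ratio scaling, quantile normalization and rescaling without mitochondrially encoded genes.

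Leaving out 1 mouse turned the sign within these ranges: LLC + rFibcd1 against LLC, Isg15 -0.152 to 0.073, Oas2 -0.164 to 0.047 and Rsad2 -0.133 to 0.271. For Control + rFibcd1 against Control they were Isg15 -0.029 to 0.209, Ifit1 -0.181 to 0.008, Ifit3 -0.163 to 0.058 and Irf7 0.0 to 0.188. For LLC + rFibcd1 against Control they were Ifit1 -0.108 to 0.079, Oasl2 -0.039 to 0.209 and Usp18 -0.028 to 0.057. In tumor-bearing against tumor-free mice Ifit3 ran from -0.19 to 0.005, in the interaction Oasl2 from -0.364 to 0.02, and in LLC against Control Ifngr2 from -0.013 to 0.046 and Jak2 from -0.105 to 0.062. LLC had 3 mice, and in the simulated data small differences were detected less often than large ones. Those data left 13105 of 13305 genes unchanged, whereas 35.8% of all genes passed in LLC against Control, so their rates need not carry over. Mx1 and the ligands, at few reads, were below the filter and were not simulated.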
